A study of Mus musculus with 6 samples.

Results

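The tumour necrosis factor (TNF) ligand and receptor superfamily was examined in CD4 T cells with and without Dicer. Its members were taken by name: every array row whose platform annotation gave exactly 1 gene symbol beginning Tnfsf or Tnfrsf with a number, or equal to Tnf, Lta, Ltb, Ltbr, Fas, Fasl, Cd27, Cd70, Cd40, Cd40lg, Ngfr or Eda2r. This gave 41 genes, 26 receptors and 15 ligands, out of 19935 genes with a value, each on a single array row. The genes of the ligands Tnfsf12 and Tnfsf13 share a row with several symbols and were not counted as members. The rule itself uses names and no measured values, but the family was chosen with earlier results of these data known.

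Ligands of the family are mostly membrane proteins that act as trimers and can be cut from the cell surface by metalloproteases. Receptors fall into those with a cytoplasmic death domain, which can recruit FADD or TRADD and caspase-8, those that bind TRAF adaptors and activate NF-kB, and decoys that bind ligand without a full signalling tail. In T cells, receptors such as CD27, OX40 and CD137 act as costimulators, Fas mediates activation-induced death, and the ligand CD40L delivers help to B cells.

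RNA came from T cells that were CD4+ and CD62L-, described as resting, sorted from lymph nodes and measured on Affymetrix MoGene 1.0 ST v1 arrays without any treatment. Both groups carried homozygous floxed Dicer (Dicer lox/lox). The 3 Dicer WT samples were Cre-negative controls, and the 3 Dicer KO samples carried a Cd4-Cre transgene, which is active from the CD4-expressing stages of thymic development onward. The 3 samples of each genotype are described as biological replicates. The labels used here name no age, sex or strain and do not say whether animals were pooled. The row of Dicer1, the targeted gene, read 0.12, 0.02 and -0.10 in Dicer WT and 0.21, -0.02 and -0.09 in Dicer KO, a difference of 0.02 ± 0.09 (adjusted p = 0.949, limma). The genotypes overlapped. Neither the floxed exon nor the position of the row's probes was known here, so this value does not check the genotype labels, which are taken as given.

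Deposited values are taken to be log2 and have each row's 6-array median removed, so they show differences between arrays and carry no expression level. Differences below are Dicer KO minus Dicer WT on the log2 scale, with the standard error (SE, n = 3 per genotype), and adjusted p-values are from limma's two-sided moderated test with Benjamini-Hochberg adjustment over all 19935 genes. A gene is said to have risen or fallen where the adjusted p was under 0.05. A coarse level class could still be read from rounding: rows at 8 or more on the deposited log scale before centring (16.4% of rows) were stored with a coarser binary step than lower rows. The higher class held 90.3% of ribosomal protein rows and 1.55% of olfactory receptor rows. A row counts as higher if all 6 arrays show that step, so the class is not independent of the difference between genotypes. Of the marker genes, 11 of 11 measured T cell markers lay in the higher class against 0 of 15 B cell, 0 of 15 myeloid, 0 of 12 regulatory T cell, 2 of 12 CD8 T and NK cell (Cd8b1 and Prf1) and 1 of 10 stromal markers (Pecam1). The T cell markers did not move one way: Cd4 (1.59-fold) and Cd2 (1.49-fold) rose, Cd5 fell by 0.44 (adjusted p = 0.00704), and the other 8 did not pass, with a list median of 0.131. On the second principal component (21.2% of the variance), the arrays Dicer WT 3 and Dicer KO 3 scored -14.1 and -10.5, and the other arrays between -1.89 and 10.2.

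Of the 41 members, 9 rose in Dicer KO and 0 fell. Over all genes, 5.94% were called higher and 2.79% lower by the same test. At an unadjusted p under 0.05 limma gave 11 members higher and 0 lower, where 12.1% of all genes were higher and 9.4% lower. The 9 were the receptors Cd27, Tnfrsf26, Fas, Tnfrsf14, Tnfrsf9 and Tnfrsf1a and the ligands Tnfsf8, Tnfsf10 and Tnf. These were 6 of 26 receptors and 3 of 15 ligands. The other 32 members spread around 0, from -0.28 to 0.32. The median difference was 0.04 for the 26 receptors and -0.019 for the 15 ligands, against -0.011 over all genes, so the rises belonged to a minority of each class.

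**Figure D1:**
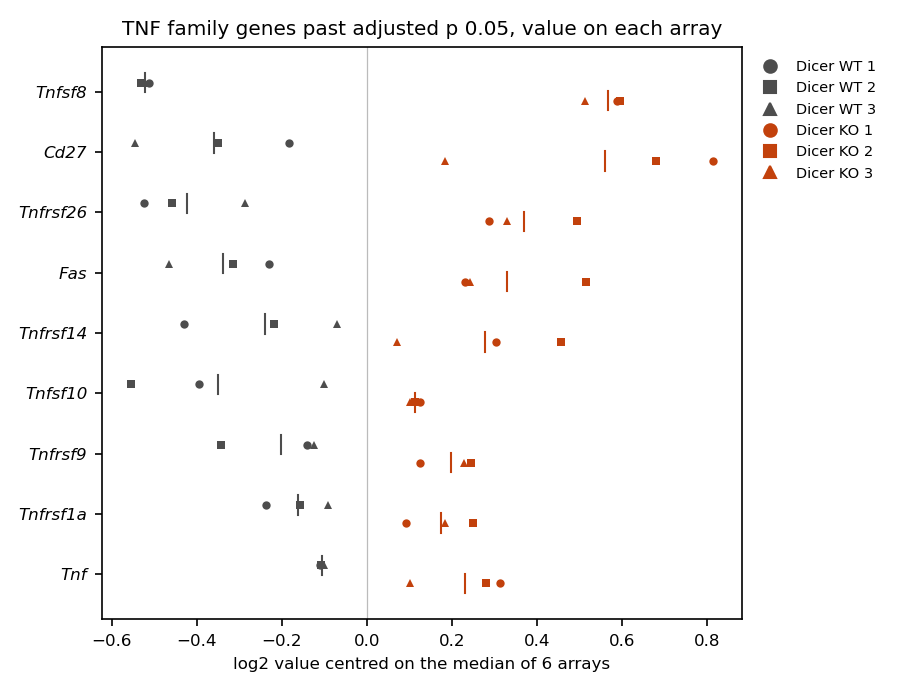
Value of each of the 9 TNF family genes called higher in Dicer KO (y axis, ordered by difference) on each array (x axis, log2 centred on the median of 6 arrays); grey points are Dicer WT arrays, orange points Dicer KO arrays, marker shapes the replicate number and vertical ticks the genotype means. In all 9 genes every Dicer KO array lies above every Dicer WT array, with the genotype means farthest apart at Tnfsf8 and the widest Dicer KO group at Cd27.

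Upstream sequence from RefSeq (assembly GRCm38.p6) is shown for Tnfsf8 and Fas, whose calls held with any array left out, and for Tnfrsf14, the called gene with an interferon response motif. A promoter window was at hand for 32 of the 41 members, 8 of the called ones among them. Each line gives the 250 bases before the transcription start, 5′ to 3′ on the strand of the gene, and capitals mark motif matches. Tnfsf8 lies on the minus strand at chr4:63861285-63861534, Fas on the plus strand at chr19:34290409-34290658 and Tnfrsf14 on the minus strand at chr4:154928078-154928327.
Tnfsf8: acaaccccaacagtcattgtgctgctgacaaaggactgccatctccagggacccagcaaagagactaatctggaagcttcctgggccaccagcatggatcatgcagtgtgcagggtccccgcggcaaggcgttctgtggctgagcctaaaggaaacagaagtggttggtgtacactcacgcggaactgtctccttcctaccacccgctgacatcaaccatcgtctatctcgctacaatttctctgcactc
Fas: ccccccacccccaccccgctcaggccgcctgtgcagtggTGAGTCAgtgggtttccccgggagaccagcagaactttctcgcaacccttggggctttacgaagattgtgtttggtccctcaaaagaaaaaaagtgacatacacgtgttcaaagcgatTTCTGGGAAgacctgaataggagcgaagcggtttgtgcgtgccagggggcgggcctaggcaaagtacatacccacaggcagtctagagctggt
Tnfrsf14: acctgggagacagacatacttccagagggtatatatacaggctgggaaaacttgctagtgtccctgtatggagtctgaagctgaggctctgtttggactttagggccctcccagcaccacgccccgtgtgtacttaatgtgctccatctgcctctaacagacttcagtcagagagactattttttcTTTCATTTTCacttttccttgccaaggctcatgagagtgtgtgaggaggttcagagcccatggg

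The motifs searched, on both strands, were the TATA box TATAAA, the AP-1 motif TGANTCA, the interferon-stimulated response element core (GAAA, NN, GAAA in a row), the gamma-activated site core TTCNNNGAA and the NF-kB consensus. The matches in the sequences shown do not overlap each other. Fas held an AP-1 match starting 211 bases and a gamma-activated site match starting 93 bases before the start. Tnfrsf14, shown because of its match, held an interferon-stimulated response element match starting 64 bases before it, and Tnfsf8 held none of the 5 motifs. The window of Tnfsf10, a called gene inducible by interferon whose sequence is not shown, also held none of them. Among the 8 called members with a window, AP-1 was found in Fas and Tnfrsf9, the gamma-activated site core in Fas, Tnfrsf1a and Tnfrsf9, the TATA box in Tnf and the NF-kB consensus in Tnfrsf9. Members without a call held the same motifs: of 24 with a window, 3 had AP-1, 5 the gamma-activated site core, 6 the TATA box, 3 the interferon-stimulated response element core and 2 the NF-kB consensus. Of all 32851 RefSeq windows of this length, 6.75% held the AP-1 motif, 7.02% the gamma-activated site core, 12.4% the TATA box, 2.98% the interferon-stimulated response element core and 3.9% the NF-kB consensus. A match is a run of letters and does not show that a factor bound there.

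Among receptors with a death domain, Fas and Tnfrsf1a rose and 4 others did not pass the test. Fas, the receptor that triggers caspase-8 on binding Fas ligand, read -0.23, -0.32 and -0.47 in Dicer WT (arrays 1, 2 and 3, the order used throughout) and 0.23, 0.51 and 0.24 in Dicer KO. Dicer KO 2 was the highest array and Dicer WT 3 the lowest, and the genotypes did not overlap. The difference was 0.67 ± 0.10, or 1.59-fold (adjusted p = 0.00773), and it was called with any 1 array left out (highest adjusted p = 0.0326). Tnfrsf1a, the widely expressed TNF receptor, read -0.24, -0.16 and -0.09 in Dicer WT and 0.09, 0.25 and 0.18 in Dicer KO. The arrays were separate but the step was small, 0.34 ± 0.06 or 1.26-fold (adjusted p = 0.02). Leaving out Dicer KO 2 gave an adjusted p of 0.0846, Dicer WT 1 gave 0.0782, Dicer WT 2 gave 0.0662 and Dicer KO 3 gave 0.0539, all without a call. The death receptor of the ligand TRAIL, Tnfrsf10b, differed by 0.04 ± 0.09, with a 95% interval of -0.17 to 0.26. Tnfrsf25, which binds the ligand Tnfsf15 and costimulates T cells, differed by 0.12 ± 0.11 (interval -0.13 to 0.37) and was in the higher level class. Tnfrsf21 and the neurotrophin receptor Ngfr differed by -0.02 and -0.10.

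Of 7 receptors listed for T cell costimulation, Cd27, Tnfrsf9 and Tnfrsf14 rose. CD27, which supports survival and memory of T cells on binding CD70, read -0.18, -0.35 and -0.55 in Dicer WT and 0.81, 0.68 and 0.18 in Dicer KO. Dicer KO 3 lay well below Dicer KO 1 and Dicer KO 2 but above all Dicer WT arrays. This was the largest receptor difference, 0.92 ± 0.17 or 1.89-fold (adjusted p = 0.0185). The adjusted p was 0.0846 without Dicer KO 2, 0.0644 without Dicer WT 2 and 0.00607 without Dicer KO 3.

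Tnfrsf9, which encodes the activation-induced costimulator CD137, read -0.14, -0.34 and -0.12 in Dicer WT and 0.12, 0.24 and 0.23 in Dicer KO. Dicer WT 2 was the low array, and the genotypes did not overlap. The difference was 0.40 ± 0.07, or 1.32-fold (adjusted p = 0.0186), not called without Dicer WT 1 (adjusted p = 0.0522), Dicer KO 2 (0.0849) or Dicer KO 3 (0.0537). Tnfrsf14, which encodes HVEM, a receptor for LIGHT that also binds BTLA and CD160, read -0.43, -0.22 and -0.07 in Dicer WT and 0.30, 0.46 and 0.07 in Dicer KO. The arrays Dicer WT 3 and Dicer KO 3 nearly met, without overlap. The difference was 0.52 ± 0.12, or 1.43-fold (adjusted p = 0.0458). The call held without Dicer WT 3 or Dicer KO 3. The adjusted p was 0.149 without Dicer KO 2, 0.13 without Dicer WT 1, 0.119 without Dicer WT 2, 0.114 without Dicer KO 1, 0.0535 with a replicate block and 0.0506 with arrays scaled to a common spread.

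The remaining costimulators did not pass. Tnfrsf18, which encodes GITR, had Dicer KO arrays at 0.06, 0.004 and 0.14 and Dicer WT arrays at -0.21, -0.08 and -0.004, which do not overlap. Its difference of 0.17 ± 0.07 had an adjusted p of 0.222. For Tnfrsf4, which encodes OX40, the genotypes overlapped (-0.17, 0.14 and -0.25 against -0.14, 0.20 and 0.24), and the interval of its difference, -0.13 to 0.50, was wide. Tnfrsf1b, the TNF receptor without a death domain, differed by 0.02 ± 0.08 and the CD30 gene Tnfrsf8 by -0.05 ± 0.11. The values of Tnfrsf1a and Tnfrsf1b are given side by side, and the difference between them was not tested.

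The decoy group held the receptor with the lowest adjusted p. Tnfrsf26, a mouse receptor encoded beside the decoy TRAIL receptors Tnfrsf22 and Tnfrsf23, read -0.53, -0.46 and -0.29 in Dicer WT and 0.29, 0.49 and 0.33 in Dicer KO. The genotypes were well apart on every array. The difference was 0.79 ± 0.08, or 1.73-fold (adjusted p = 0.00276), and was called with any 1 array left out (highest adjusted p = 0.0168). Tnfrsf22 had a negative difference without a call, with Dicer WT at 0.23, -0.03 and 0.04 and Dicer KO at 0.03, -0.21 and -0.42 (-0.28 ± 0.12, adjusted p = 0.248). Its genotypes overlapped. Tnfrsf23 and the soluble decoy Tnfrsf11b, also called osteoprotegerin, differed by 0.04 ± 0.07 and 0.10 ± 0.07. Tnfrsf22 and Tnfrsf23 are closely related copies, and which transcripts their probes bind was not examined here, so their separate values are uncertain.

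Receptors that mark other cell types showed no call. Of the 4 receptors of B cells and antigen-presenting cells, Cd40 differed by 0.03 ± 0.05, the BAFF receptor gene Tnfrsf13c by 0.15 ± 0.08, Tnfrsf13b by -0.08 ± 0.06 and Tnfrsf17 by 0.06 ± 0.06. None was in the higher level class. The 5 receptors of other tissues, Ltbr, Tnfrsf11a, Tnfrsf12a, Tnfrsf19 and Eda2r, had differences of -0.224 to -0.006, with 0 of 5 positive. Tnfrsf11a, the receptor of RANKL, had Dicer KO arrays below all Dicer WT arrays with a difference of -0.11 ± 0.05 (adjusted p = 0.257). Counting every member, the arrays did not overlap in 10 with Dicer KO above and in 2 with Dicer KO below, against 13.5% and 12.7% of all genes.

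Among the ligands, Tnfsf8 had the lowest adjusted p in the family. Tnfsf8 encodes CD30 ligand, a surface protein of activated T cells. It read -0.51, -0.53 and -0.53 on the Dicer WT arrays and 0.59, 0.60 and 0.51 on the Dicer KO arrays. Arrays of a genotype lay close together and the genotypes far apart. The difference of 1.09 ± 0.05, or 2.13-fold, was the largest in the family (adjusted p = 0.000273), and the adjusted p stayed at 0.00442 or below with any 1 array left out. The receptor of this ligand, Tnfrsf8, read -0.04, 0.04 and 0.08 in Dicer WT and -0.19, -0.12 and 0.25 in Dicer KO and did not pass.

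Of 5 ligands listed for T cell killing and inflammation, Tnf and Tnfsf10 rose. Tnf, the founding cytokine of the family, read -0.11, -0.11 and -0.10 in Dicer WT and 0.31, 0.28 and 0.10 in Dicer KO. Dicer KO 3 was the lowest Dicer KO array. The difference was 0.34 ± 0.07, or 1.26-fold (adjusted p = 0.0228). It no longer passed on leaving out Dicer KO 2 (adjusted p = 0.0998), Dicer WT 1 (0.0837), Dicer WT 2 (0.0758) or Dicer KO 1 (0.0645). Tnfsf10 encodes TRAIL, a death ligand that is also inducible by interferon. It read -0.40, -0.56 and -0.10 in Dicer WT and 0.12, 0.11 and 0.10 in Dicer KO. The Dicer KO arrays were nearly equal, while Dicer WT 3 lay far above Dicer WT 1 and Dicer WT 2. The difference was 0.46 ± 0.11, or 1.38-fold (adjusted p = 0.0446). It was not called without any array other than Dicer WT 3 (adjusted p 0.0963 to 0.142), and without Dicer WT 3 the adjusted p was 0.00568.

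Ltb, a subunit of the membrane lymphotoxin that organises lymphoid tissue, was the only ligand in the higher level class. It read -0.30, -0.41 and 0.02 in Dicer WT and -0.02, 0.12 and 0.17 in Dicer KO, so that Dicer WT 3 overlapped the Dicer KO arrays. Its difference of 0.32 ± 0.11 was not called (adjusted p = 0.148), but was called without Dicer WT 3 (0.45, adjusted p = 0.0205). Its partner subunit Lta differed by 0.10 ± 0.07 and Fasl, the ligand of Fas, by -0.07 ± 0.07 (95% interval -0.22 to 0.09).

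The other ligands did not pass. Cd40lg, whose product helps B cells, had the widest spread of the family, with 0.31, 0.06 and -0.35 in Dicer WT and -0.06, 0.14 and -0.54 in Dicer KO. Dicer WT 3 and Dicer KO 3 were the low arrays of their genotypes, and the interval of the difference ran from -0.66 to 0.34. Tnfsf14, which encodes LIGHT, and Tnfsf11, which encodes RANKL, differed by -0.10 ± 0.08 and -0.02 ± 0.09. The 5 ligands typical of antigen-presenting cells, Cd70, Tnfsf4, Tnfsf9, Tnfsf15 and Tnfsf18, lay between -0.115 and 0.037, and the B cell survival factor Tnfsf13b at -0.07. Of all 32 members not called, 27 had a 95% interval inside 0.5 log2 units on either side of 0. The exceptions were Ltb, Cd40lg, Tnfrsf4, Tnfrsf12a and Tnfrsf22, for which a difference of that size lies inside the interval.

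**Figure D2:**
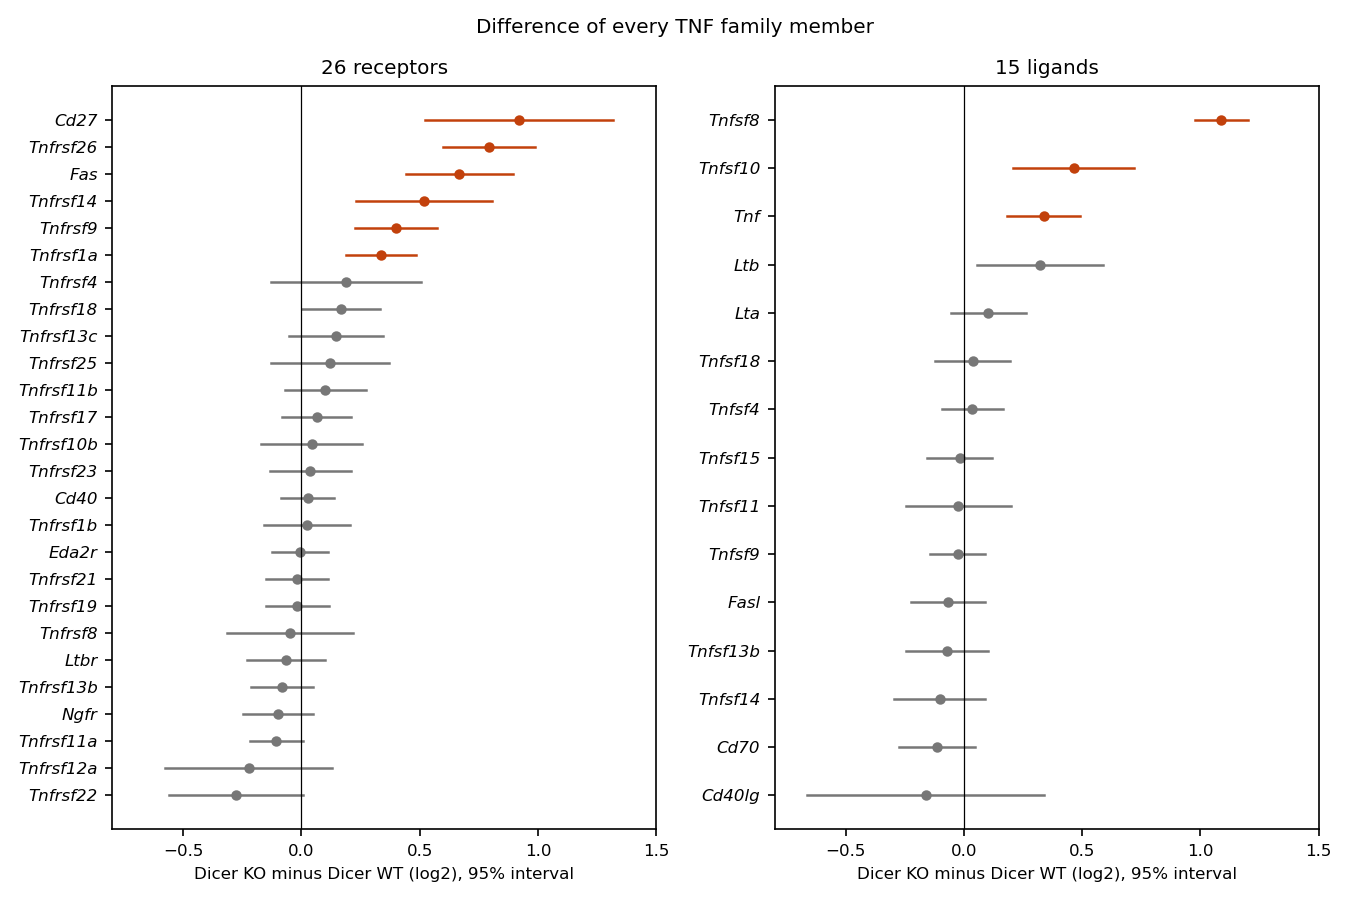
Difference of Dicer KO minus Dicer WT (x axis, log2) with its 95% interval from the moderated fit for each of the 26 receptors (left) and 15 ligands (right), ordered by difference; orange marks genes with adjusted p under 0.05. The 9 orange genes all lie above 0, and most grey intervals are narrow and cross 0.

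Cd27, Tnfrsf1a, Tnfrsf14, Tnfrsf18, Tnfrsf25 and Ltb made up the 6 members of the higher class, and 3 of these 6 rose, where 21.6% of the 3001 genes of that class did. Of the 35 members in the lower class 6 rose, where 3.17% of the other genes did. The values carry no detection measure, so in the lower class an expressed gene without a difference and a gene not expressed cannot be told apart.

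Within a genotype, the arrays did not take the highest place equally often in the 9 called genes, an unevenness that was not tested. Dicer KO 2 was the highest Dicer KO array in 6 of 9 and Dicer KO 3 in 0 of 9, where among all 1184 genes called higher these shares were 37.1% and 28.1%. Dicer WT 3 was the highest Dicer WT array in 6 of 9, against 36.3% of those genes. With 1 array left out, Tnfsf8, Tnfrsf26 and Fas were called each time, among 2 to 6 receptors and 1 to 4 ligands. Leaving out Dicer KO 2 brought the fewest calls, 2 receptors and 1 ligand, and 2.77% of all genes were then called higher. Of Dicer WT 1, 2 and 3, leaving out the first gave 3 receptors and 1 ligand (all genes 3.18%), the second 3 and 1 (3.83%) and the last 6 and 4 (5.37%), Ltb being the added ligand. Without Dicer KO 1 there were 5 receptors and 1 ligand (all genes 4.79%), and without Dicer KO 3 there were 4 and 2 (5.01%). A fit with a replicate block called 5 receptors and 3 ligands higher (all genes 7.06%). Within the higher level class alone, which holds 5 receptors and 1 ligand (Ltb), 3 receptors and 0 ligands were called, where 27.7% of its genes were higher. Without the pair of arrays low on the second component, all 9 were called and so was Ltb (all genes 5.76%).

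**Figure D3:**
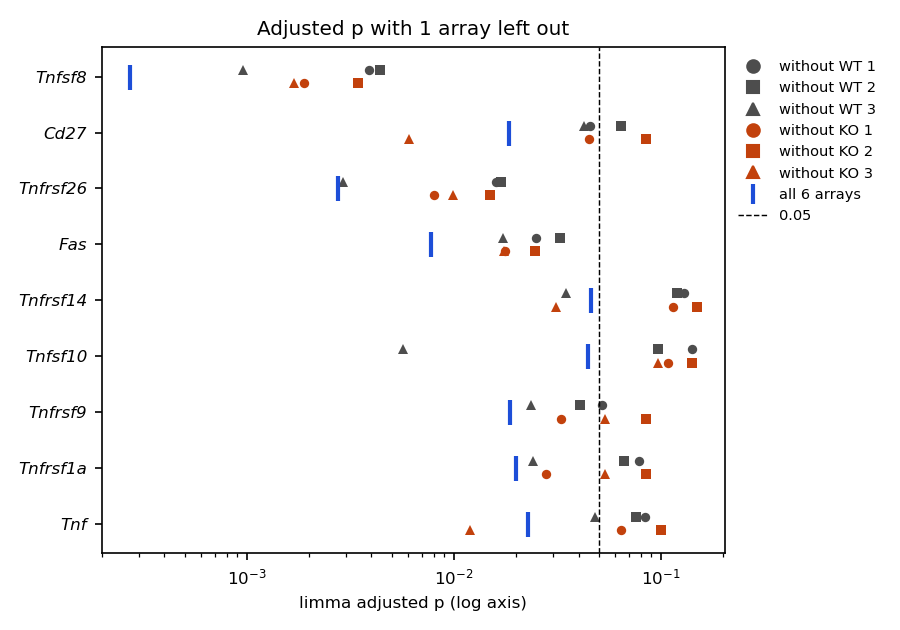
Limma adjusted p (x axis, log scale) of the 9 called genes with all 6 arrays (blue bar) and with each array left out in turn (grey for a Dicer WT array, orange for a Dicer KO array, shape for its number); the dashed line is 0.05. Every point of Tnfsf8, Tnfrsf26 and Fas lies left of the line, and 5 of 6 points of Tnfsf10 lie right of it.

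Some markers of other cells differed with genotype. The median of 15 B cell markers was -0.379, 0.016 and -0.2 on the Dicer WT arrays against 0.058, 0.033 and 0.076 for Dicer KO. Only 1 of them, Bank1, rose, but 14 of the 15 differences were positive. The list median was 0.219, where over all genes 45.2% were positive and the median was -0.011. Those at an unadjusted p under 0.05 in limma included Ms4a1 (0.68, adjusted p = 0.0717) and Cd79b (0.44, adjusted p = 0.0813). Of 15 myeloid markers, Lyz2 and Mpeg1 rose and the list median was -0.029. Of 12 regulatory T cell markers, a population rich in GITR, OX40 and CD137, Gpr83 and Capg rose, while the defining gene Foxp3 differed by 0.12 ± 0.11 (adjusted p = 0.605) and Il2ra by 0.07 ± 0.05 (adjusted p = 0.475). Dicer WT 1 and Dicer WT 3 had the lowest B cell marker medians, and with both left out the 9 differences ran from 0.333 for Tnfrsf1a to 1.10 for Tnfsf8. Tnfsf8, Tnfsf10 and Tnfrsf26 were called in that fit (all genes 0.963%), which has a lone Dicer WT array and assumes that it varies like the others. Of 12 CD8 T and NK cell markers 0 were called, with a list median of 0.034, and at an unadjusted p under 0.05 limma had Klrd1 (0.87, adjusted p = 0.136) and Prf1 (0.67, adjusted p = 0.0776) higher and Cd8b1 (-0.26, adjusted p = 0.0567) lower. Of 10 stromal markers, only Pecam1 rose, 1.69-fold (adjusted p = 0.00158), and it alone of them was in the higher level class. The differences were positive in 4 of the 10, and the list median was -0.045. The part of these cells in the calls was not tested. In sorted bulk RNA, more cells of a kind and more RNA per cell cannot be told apart.

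Calls did not cover any whole genomic cluster of members, but only 9 of the 41 members were called at all. How many whole clusters that share would give was not worked out. With at most 3 coding genes between successive members in the GRCm38.p6 gene order, 21 members fell into 8 clusters. In 4 clusters some members rose and others did not pass, in 4 none rose, and in 0 did all rise. On chromosome 4, Tnfsf8 rose by 1.09 next to Tnfsf15 at -0.02. On chromosome 6, Cd27 (0.92) and Tnfrsf1a (0.34) rose while Ltbr between them stood at -0.07, and on chromosome 7 Tnfrsf26 (0.79) rose beside Tnfrsf22 at -0.28 and Tnfrsf23 at 0.04. In the lymphotoxin cluster on chromosome 17, Tnf (0.34) was called between Ltb (0.32) and Lta (0.10), which were not. The differences between neighbours were not tested.

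**Figure D4:**
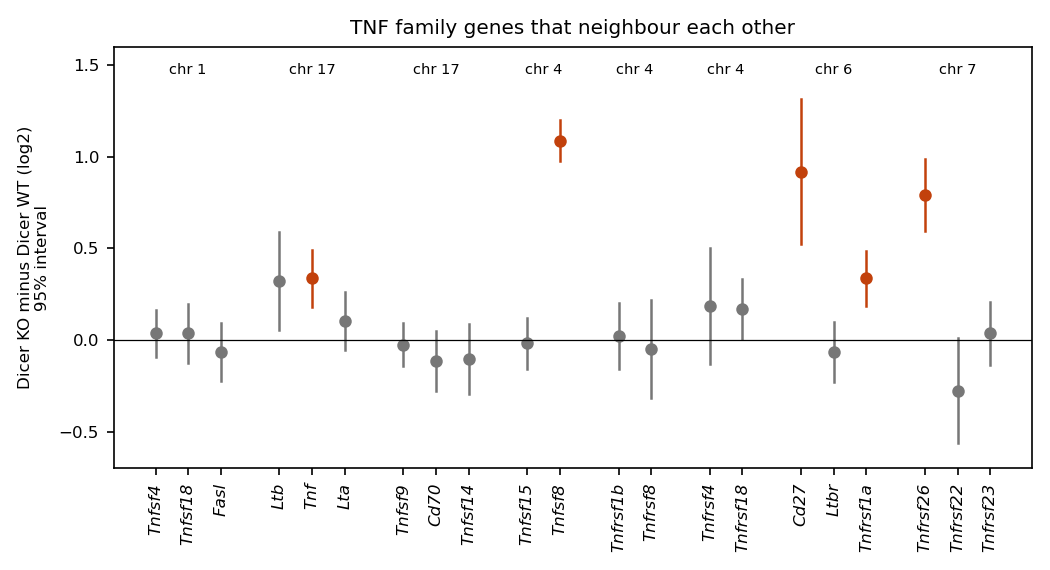
Difference of Dicer KO minus Dicer WT (y axis, log2) with its 95% interval for the 21 TNF family genes that lie in 8 genomic clusters, in gene order within each cluster and labelled by chromosome; orange marks genes with adjusted p under 0.05. Called and uncalled genes stand side by side in 4 clusters, as with Tnfsf8 and Tnfsf15 on chromosome 4.

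Of 24 listed ligand and receptor pairs, 21 had a value on each side. In 1 pair, Tnf with Tnfrsf1a, both genes rose. In 5 pairs the receptor alone rose: Fas with Fasl, Cd27 with Cd70, Tnfrsf9 with Tnfsf9, Tnfrsf14 with Tnfsf14, and Tnfrsf1a with Lta. In 3 pairs the ligand alone rose: Tnfsf8 with Tnfrsf8, Tnfsf10 with Tnfrsf10b, and Tnf with Tnfrsf1b. Neither gene passed in the other 12, which include Cd40lg with Cd40 and Tnfsf4 with Tnfrsf4. Pairs share genes and are not independent of each other.

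Genes that process or relay the family's signals were read from the same fit. Over 7 lists with 73 measured genes, each counted once, 10 rose (13.7%) and 2 fell, against 5.94% higher and 2.79% lower over all genes. The higher level class held 24 of these 73 genes, against 3001 of all 19935. In that class 21.6% of genes rose, and 3.17% of the others did, so the shares 13.7% and 5.94% are not over a like mix of classes. Their median difference was 0.077.

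The sheddases were among the larger changes. Adam17, the protease that releases TNF and several TNF receptors from the cell surface, read -0.39, -0.26 and -0.24 in Dicer WT and 0.30, 0.24 and 0.26 in Dicer KO. Adam10, which cuts Fas ligand among other substrates, read -0.36, -0.33 and -0.59 against 0.46, 0.44 and 0.33. Neither gene's genotypes overlapped. Adam10 rose by 0.84 ± 0.08, or 1.79-fold (adjusted p = 0.00202), and Adam17 by 0.56 ± 0.06, or 1.48-fold (adjusted p = 0.00243), and each was called with any 1 array left out. Mmp7 fell by 0.29 (adjusted p = 0.0385), but the adjusted p rose to 0.142 on leaving out Dicer KO 2, to 0.122 for Dicer WT 1, to 0.0997 for Dicer KO 3 and to 0.0954 for Dicer WT 2. Of 8 genes listed for shedding and processing, 2 rose and 1 fell.

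Of 10 measured NF-kB factors and inhibitors, 3 rose and 0 fell, with a median of 0.186 (at an adjusted p under 0.05 in limma). Bcl3, an atypical IkB protein, was 1.94-fold higher (0.96 ± 0.10, adjusted p = 0.00271). The inhibitor Nfkbia read -0.26, -0.37 and -0.31 in Dicer WT and 0.29, 0.26 and 0.27 in Dicer KO (0.59 ± 0.05, adjusted p = 0.00134). Nfkb2, the precursor subunit of the non-canonical pathway downstream of several TNF receptors, rose by 0.54 ± 0.07 (adjusted p = 0.00453). The factors Rel, Rela and Relb did not pass, at 0.15 ± 0.11, -0.05 ± 0.09 and 0.08 ± 0.06.

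In a mixed list of 18 kinases, ubiquitin enzymes and proteases around NF-kB, 2 rose (11.1%). Of 11 TRAF and IAP genes 1 did (9.09%), and none of either list fell. In the first list, Map3k5, a stress kinase also called ASK1 (0.52 ± 0.08, adjusted p = 0.0091), and Sppl2a, an intramembrane protease (0.40 ± 0.08, adjusted p = 0.0215), passed. The rest of that list, among them the kinase genes Ikbkb and Map3k14 and the ubiquitin gene Cyld, did not pass. Sppl2a was counted here, whereas Sppl2b was listed with shedding and processing. Sppl2a was not called without Dicer WT 1 (adjusted p = 0.084), Dicer KO 1 (0.0563) or Dicer KO 2 (0.0689). In the second list, Birc3, a ubiquitin ligase bound to TRAF2, rose by 0.33 ± 0.07 (adjusted p = 0.0334). With 1 array left out it was called only without Dicer WT 2 (adjusted p = 0.0183), and the remaining fits gave 0.0731 to 0.115. With both Dicer WT 1 and Dicer WT 3 left out its difference was 0.185 (adjusted p = 0.344). Traf5 differed by -0.26 ± 0.06 with no call, and Traf1 spread widely, from -0.16 to 0.51 in Dicer WT and from -0.09 to 0.76 in Dicer KO.

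In the death complex, 1 of 11 measured genes rose and 1 fell. Cflar, the caspase-8 inhibitor recruited to Fas, was 1.39-fold higher (adjusted p = 0.00328). Ripk3, the kinase of necroptosis, read 0.31, 0.47 and 0.17 in Dicer WT and -0.19, -0.27 and -0.17 in Dicer KO. It fell by 0.53 with an SE of 0.08 (adjusted p = 0.0102), and this call was lost without Dicer KO 2 (0.0533). Among 19 measured genes listed as responsive to TNF, 5 rose and 0 fell, with a median of 0.12. These were Bcl3, Nfkbia, Nfkb2 and Birc3, already named, and Irf1, an interferon-responsive factor (0.77 ± 0.07, adjusted p = 0.00202). Irf1 lies on several array rows, and its row of largest spread alone gave 1.30 (adjusted p = 0.000939). The feedback inhibitor Tnfaip3 did not pass and was low on Dicer WT 3 (-0.73, against 0.33 and 0.08 on the other Dicer WT arrays). Of 5 other surface receptors linked to the family or to T cell inhibition, 0 were called by limma and 0 had an unadjusted p under 0.05, among them the HVEM ligands Btla (0.16 ± 0.15) and Cd160 (0.005 ± 0.05).

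**Figure D5:**
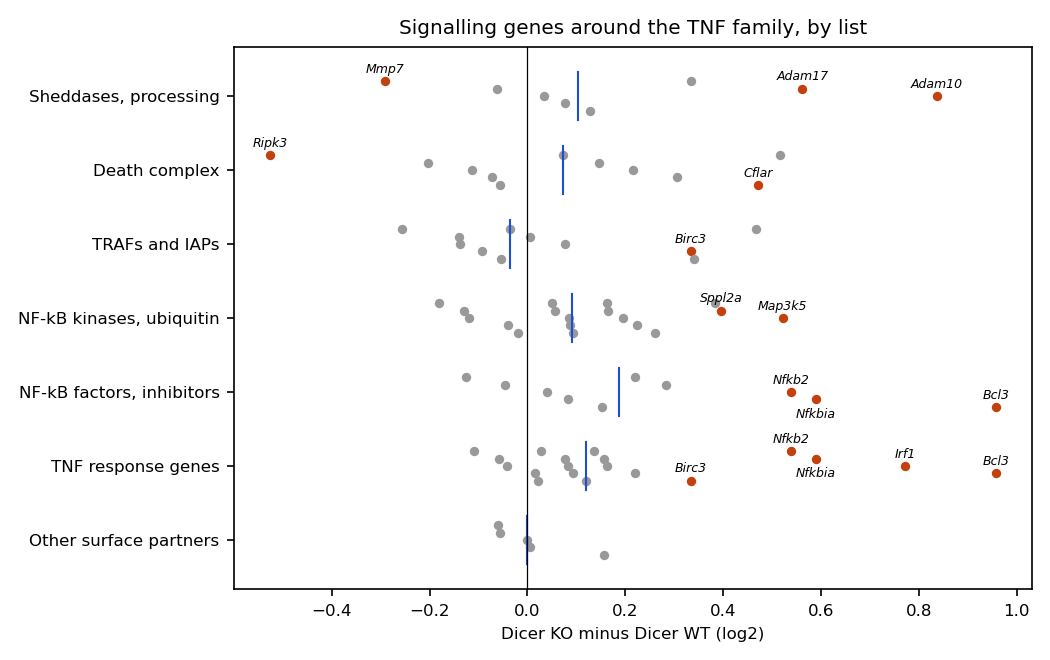
Difference of Dicer KO minus Dicer WT (x axis, log2) for each measured gene of 7 lists around the TNF family (rows); orange marks genes with adjusted p under 0.05, which are named, blue bars mark list medians, and points are offset vertically for legibility. Calls lie mostly right of 0, with Bcl3, Adam10 and Irf1 farthest when a gene's rows are averaged (Irf1 is at 1.30 on its row of largest spread), and Ripk3 and Mmp7 lie to the left.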

How the data were processed

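The table the authors deposited has 28815 rows and 6 arrays, and its values were taken to be log2. MAS5 appears, without a role, per the submitters' processing notes. For the log base and the normalization, the sources used here give nothing. Row medians over the arrays are 0 (at most 5e-07 away). This centring cancels in a difference between genotypes but sets the closest arrays of non-overlapping genotypes symmetrically around 0. Folds assume base 2. Names come from the platform annotation in GEO and the RefSeq gene table of GRCm38.p6, and the mean of a gene's rows with 1 symbol was used. No filter was applied.

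Differences were fitted by limma (version 3.58.1, R 4.3.3) through lmFit and eBayes with genotype only. Tested on simulated data of 19935 genes with the 2 genotypes, the fit recovered 62.7%, 88.1% and 98.5% of genes changed by 0.5, 1 and 2, with 0 wrong signs and 7 unchanged genes called. The simulation changed far fewer genes than were called in the data and drew noise independently for each gene and array. Its rates need not hold for these data. The members and lists were chosen with earlier results of these data known. Named were all called members, up to 4 others per role group (more where the account of all members needed them), called signalling genes, and listed pairs and neighbours. Traf1, Traf5, Tnfaip3, Rel, Rela, Relb and the markers other than Cd4, Foxp3 and Il2ra were named after their values were seen. Alternatives left out arrays, added a replicate block, rescaled or weighted arrays, used a robust prior, another row per gene, or the higher level class alone. Some listed genes, among them Ripk1, Traf3, Chuk, Nfkb1 and Bcl2a1b, were not analysed here.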

Additional observations from a re-analysis of the deposited data

How the results depend on the processing

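No called member or called signalling gene changed sign under any alternative run. In each of these genes the genotypes do not overlap, so leaving out arrays could not have reversed a sign. The called marker genes were not followed through the alternatives. With 1 array left out, genes called higher over all genes numbered 553 to 1070 and lower 176 to 527 (1184 and 557 with all arrays). Receptors called higher numbered 2 to 6, ligands 1 to 4, and signalling genes higher 8 to 10 and lower 0 to 3. Whether the replicate numbers pair the samples was not settled. Deviations of same-numbered samples correlated at 0.274, -0.076 and 0.3, and those of differently numbered samples at -0.366 to 0.227. With 3 samples per genotype such correlations cannot decide it. A replicate block lowered the SE of Cd27 from 0.169 to 0.076 but left that of Tnfrsf14 at 0.122. With a replicate block, 1407 genes were higher and 656 lower, with 5 receptors, 3 ligands and 13 signalling genes higher, and Tnfrsf14 had an adjusted p of 0.0535. Array weights gave 1640 genes higher and 897 lower, with 6 receptors and 4 ligands higher, Ltb being the added ligand. The row of largest spread per gene moved Irf1 from 0.77 to 1.30. Within the higher level class alone, which tests 3001 genes and 6 members, 174 genes were lower, 3 receptors and 0 ligands higher, and 0 signalling genes lower. The called ligands Tnfsf8, Tnfsf10 and Tnf and the fallen signalling genes Ripk3 and Mmp7 lie in the lower class. They were therefore not tested in that fit. Chosen after seeing the data, leaving out both Dicer WT 1 and Dicer WT 3 gave 192 genes higher and 21 lower, 1 receptor higher, and 2 signalling genes higher and 1 lower. Leaving out both Dicer WT 3 and Dicer KO 3 gave 1 signalling gene lower. These fits have fewer arrays. The number of arrays and the unknown signal over background limit the precision.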

Other observations

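The row shared by the ligand genes Tnfsf12 and Tnfsf13 and their joined transcript Tnfsfm13 read 0.0007, 0.05 and 0.02 on the Dicer WT arrays and -0.07, -0.06 and -0.0007 on the Dicer KO arrays, which do not overlap. Its mean difference was -0.07, and it was outside the gene-level test. Genes of the family that carry other symbols showed no call: Eda differed by -0.06 ± 0.06, its receptor Edar by -0.11 ± 0.05 and Relt by -0.07 ± 0.07.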
